A study of Mus musculus with 6 samples.

Results

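The *Cacna1* genes encode the alpha-1 subunits of voltage-gated calcium channels, the proteins that form the pore and sense the membrane voltage. All 10 *Cacna1* genes of the mouse were taken by name from the 55401 gene rows of the tables. Their RNA was measured in lymphatic endothelial cells (LECs) of the dura mater, the outer meningeal layer, of wild-type male C57BL/6J mice. The cells were sorted as LYVE-1+ podoplanin+ CD31+ CD45-. The mice had been injected in the cisterna magna with an adeno-associated virus (AAV) that encodes full-length mouse VEGF-C (AAV-VEGF-C), a growth factor for lymphatic vessels, or with AAV-Control, which per the methods encodes a soluble VEGFR-3 fragment fused to an immunoglobulin that does not bind VEGF-C. Both groups thus carried a virus, and no uninjected mice were among the 6 libraries. Each group had 3 libraries, 1 from each of 3 experiments, and each library held the cells of 10 to 12 pooled meninges.

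Voltage-gated calcium channels open when the membrane depolarizes and let calcium into the cell, where it drives contraction, secretion and gene expression. L-type channels (*Cacna1c*, *Cacna1d*, *Cacna1f*, *Cacna1s*) serve muscle, endocrine and sensory cells, P/Q-, N- and R-type channels (*Cacna1a*, *Cacna1b*, *Cacna1e*) serve mainly nerve terminals, and T-type channels (*Cacna1g*, *Cacna1h*, *Cacna1i*) open near the resting potential. In lymphatic vessels, L- and T-type channels are known from the muscle cells that pump lymph, whereas calcium entry in endothelium is mostly ascribed to other channels, such as Piezo1 and the Orai family.

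Depth differed between the groups. The total of estimated counts, the numbers of reads assigned to genes, was 6530269 to 12399498 in AAV-Control and 564475 to 3261935 in AAV-VEGF-C, so depth and treatment cannot be told apart. The 8 LEC markers examined, among them *Lyve1*, *Prox1* and *Flt4*, had counts in every library, and their summed level was 501 to 596 TPM (a level corrected for transcript length and for the library total) in AAV-Control and 156 to 321 TPM in AAV-VEGF-C. On scaled counts, 0 of these 8 markers were called higher or lower by edgeR, and their median log2 fold change was -0.02. The 6 fibroblast markers, led by collagen genes, summed to 1031 to 2156 TPM in AAV-Control and 260 to 856 TPM in AAV-VEGF-C, so transcripts of another cell type were abundant despite the sort. Although the sort was CD45-, the 6 leukocyte markers summed to 7, 606 and 336 TPM in AAV-Control 1, 2 and 3. In AAV-VEGF-C 1, 2 and 3 they summed to 12, 318 and 184 TPM, so experiment 1 was low in both groups. In these bulk libraries, fewer cells of a type and less RNA per cell cannot be told apart.

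In AAV-Control, the family was led by a T-type and an L-type gene. Per length, the mean TPM was 28.8 ± 11.2 (SD, n = 3 here and for each mean below) for *Cacna1g*, 9.55 ± 4.10 for *Cacna1c*, 3.88 ± 1.06 for *Cacna1d* and 1.96 ± 1.39 for *Cacna1h*. The ranges of *Cacna1g*, *Cacna1c* and *Cacna1d* did not overlap each other, whereas from *Cacna1d* downward each gene overlapped the next. *Cacna1a* (0.909 ± 0.286 TPM), *Cacna1e* (0.897 ± 0.400), *Cacna1i* (0.349 ± 0.324) and *Cacna1f* (0.339 ± 0.258) followed. *Cacna1b* (0.0677 ± 0.0509 TPM) and *Cacna1s* (0.021 ± 0.0252) were at the bottom.

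In AAV-VEGF-C, the order was different. *Cacna1d* stood first with 32.8 ± 23.5 TPM, followed by *Cacna1g* (11.2 ± 7.13), *Cacna1e* (10.4 ± 10.2), *Cacna1c* (4.67 ± 3.38), *Cacna1a* (3.12 ± 1.94) and *Cacna1h* (2.42 ± 1.03). *Cacna1f* (0.960 ± 1.12 TPM), *Cacna1s* (0.899 ± 0.415), *Cacna1i* (0.872 ± 0.813) and *Cacna1b* (0.515 ± 0.0607) came last. Every neighbouring pair in this order overlapped between libraries. *Cacna1g* exceeded *Cacna1c* in 6 of 6 libraries, whereas *Cacna1d* exceeded *Cacna1g* in 0 AAV-Control libraries and in 2 AAV-VEGF-C libraries.

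**Figure D1:**
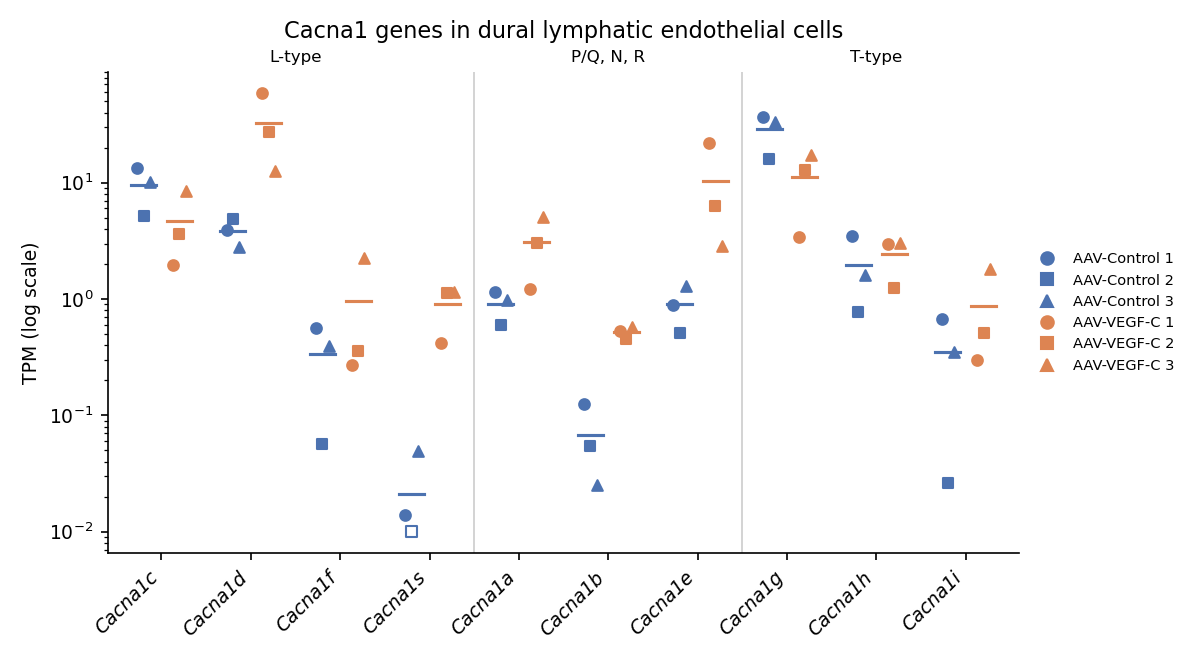
TPM (log scale) of the 10 Cacna1 genes in each library, by channel class, with a line at each group mean and the marker shape giving the experiment. The open square at the bottom stands for Cacna1s in AAV-Control 2, which was listed at 0. The AAV-VEGF-C libraries lie above all AAV-Control libraries for Cacna1d, Cacna1s, Cacna1a, Cacna1b and Cacna1e, and the groups overlap for the other 5 genes.

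The change in order of *Cacna1g* and *Cacna1d* was seen in the reads themselves. *Cacna1g* took 66.2%, 60.1% and 62.8% of all *Cacna1* counts in AAV-Control 1, 2 and 3, and 6.14%, 22.9% and 39.4% in AAV-VEGF-C 1, 2 and 3. *Cacna1d* took 5.07%, 14% and 4.28% in AAV-Control and 74.2%, 51.1% and 21% in AAV-VEGF-C. Neither gene's shares overlapped between the groups. The summed level of the family did overlap, at 61.1, 28 and 51.0 TPM in AAV-Control and 91.6, 56.8 and 55.2 TPM in AAV-VEGF-C.

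**Figure D2:**
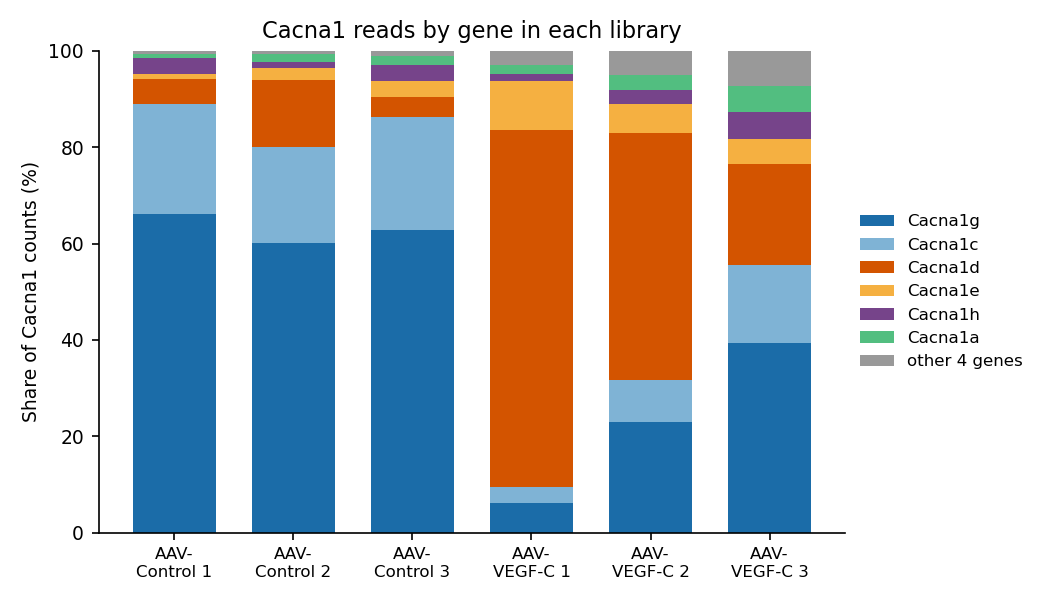
Share of the summed Cacna1 estimated counts (%) taken by each gene in each of the 6 libraries, not corrected for gene length. Cacna1g holds 60.1% to 66.2% in AAV-Control, and Cacna1d holds 21% to 74.2% in AAV-VEGF-C.

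Counts were compared between the groups by the quasi-likelihood test of edgeR across all 17459 genes that passed its filter on low counts. This main fit held no block for the experiment. All 10 *Cacna1* genes passed it. Of these, 6 were higher in AAV-VEGF-C at an adjusted p under 0.05 (*Cacna1a*, *Cacna1b*, *Cacna1d*, *Cacna1e*, *Cacna1i*, *Cacna1s*), 0 were lower and 4 were not called, where 10.5% of all genes tested were called higher and 0.659% lower. By class, 2 of 4 L-type genes, 3 of 3 P/Q-, N- and R-type genes and 1 of 3 T-type genes were higher. The members' median log2 fold change was 2.86, and that of all genes tested was -0.00372. An unadjusted p under 0.05 was reached by 7 members and by 28.1% of all genes tested. *Cacna1b*, *Cacna1f*, *Cacna1i* and *Cacna1s* passed the filter only through AAV-VEGF-C, the group in which their scaled counts were higher. The members' counts of calls and their median thus cannot be read against the values of all genes.

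Most of these calls fell among genes of low level. Of the genes tested with a mean of at least 5 TPM over all libraries, 1.69% were called higher, and of those below it 16.8%. *Cacna1c*, *Cacna1d*, *Cacna1e* and *Cacna1g* were in the upper class, in which 2 of the 4 members were higher. The other 6 members were in the lower class, in which 4 were higher. Among these, *Cacna1b*, *Cacna1i* and *Cacna1s* passed the filter only through AAV-VEGF-C, so the 4 cannot be read against the 16.8%. The 2 higher members of the upper class, *Cacna1d* and *Cacna1e*, had means of 3.88 and 0.897 TPM in AAV-Control. They entered that class through AAV-VEGF-C, with means of 32.8 and 10.4 TPM, so their number cannot be read against the 1.69%. Length separated the calls less: 10.8% of genes at least as long in exons as the shortest member, and 10.4% of shorter genes, were called higher.

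The calls depended on single libraries. Without AAV-VEGF-C 1, the shallowest library, the number of members called higher was 6, where 6.13% of all genes were. It was 4 without AAV-Control 1 (9.73% of all genes), 2 without AAV-VEGF-C 3 (1.73%), and 0 without AAV-Control 2, without AAV-Control 3 or without AAV-VEGF-C 2. In those last 3 settings, in that order, edgeR gave an unadjusted p under 0.05 for 8, 7 and 7 members and for 27.8%, 25.6% and 28.4% of all genes, and among all genes it called 0, 0 and 8 higher. The p-values measure the spread between pools of separate experiments.

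Among the L-type genes, *Cacna1d*, whose channel opens at lower voltages than its relatives and paces the sinoatrial node, gained reads even without correction for depth. The gene (ENSMUSG00000015968.17) lies at chr14:30039939-30491455 on the minus strand of GRCm38. It received 251, 343 and 255 counts in AAV-Control 1, 2 and 3 and 809, 547 and 443 counts in AAV-VEGF-C 1, 2 and 3, although the latter libraries were the shallower ones. In TPM the values were 3.92, 4.92 and 2.80 in AAV-Control and 58.5, 27.4 and 12.6 in AAV-VEGF-C.

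Thus every AAV-VEGF-C library exceeded every AAV-Control library in *Cacna1d*, in raw counts as well as per length. Within AAV-VEGF-C the count was lowest in the deepest library. The log2 fold change was 4.56 ± 1.01 (SE; edgeR adjusted p = 0.0291), and leaving out 1 library at a time gave 2.88 (without AAV-VEGF-C 1) to 4.97, with 2 of these 6 fits keeping the call. The exons of *Cacna1d* share 589 bases with *Chdh* on the other strand, and *Chdh* received 38, 55 and 64 counts in AAV-Control and 6, 12 and 32 in AAV-VEGF-C, far fewer than *Cacna1d*. The use of strand in counting was not stated, so reads of overlapping genes are uncertain here.

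*Cacna1c* (ENSMUSG00000051331.15, chr6:118587240-119196418, minus strand), the L-type channel of heart and smooth muscle, received 1126, 487 and 1398 counts in AAV-Control and 36, 95 and 341 in AAV-VEGF-C. Its TPM values were 13.3, 5.15 and 10.2 in AAV-Control and 1.96, 3.59 and 8.46 in AAV-VEGF-C. The groups overlapped, and the log2 fold change was -0.43 ± 0.42 (edgeR adjusted p = 0.541). The fitted change was 0.04 without AAV-Control 1, so its direction was not fixed.

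Promoters of these 2 L-type genes are shown because one gene was called higher and the other was not. RefSeq windows of 300 bases on GRCm38.p6, mostly upstream of a transcript start and ending just after it, were found for 7 of the 10 members (10 windows), and not for *Cacna1a*, *Cacna1g* and *Cacna1h*. *Cacna1c* has 3 windows, of which the GC-rich one is printed, and *Cacna1d* has 2, both printed. Capitals mark matches, on either strand and with overlaps counted, to the GC box GGGCGG in the first and second windows and to the TATA box TATAAA in the third. All 3 are given 5′ to 3′ on the minus strand:
Cacna1c, chr6:119108446-119108745: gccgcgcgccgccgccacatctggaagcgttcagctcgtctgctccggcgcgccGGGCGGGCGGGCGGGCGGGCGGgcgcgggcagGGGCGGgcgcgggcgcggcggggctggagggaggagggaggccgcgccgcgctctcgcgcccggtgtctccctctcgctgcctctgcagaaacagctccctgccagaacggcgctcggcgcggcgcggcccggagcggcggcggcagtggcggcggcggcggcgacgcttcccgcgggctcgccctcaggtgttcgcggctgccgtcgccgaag
Cacna1d, chr14:30353437-30353736: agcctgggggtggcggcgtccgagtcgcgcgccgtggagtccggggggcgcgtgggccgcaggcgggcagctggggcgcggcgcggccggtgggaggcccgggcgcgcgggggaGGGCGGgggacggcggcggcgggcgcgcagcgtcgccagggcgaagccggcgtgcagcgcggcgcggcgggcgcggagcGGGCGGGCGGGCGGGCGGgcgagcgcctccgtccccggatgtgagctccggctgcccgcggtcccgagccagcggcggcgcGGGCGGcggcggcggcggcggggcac
Cacna1d, chr14:30491107-30491406: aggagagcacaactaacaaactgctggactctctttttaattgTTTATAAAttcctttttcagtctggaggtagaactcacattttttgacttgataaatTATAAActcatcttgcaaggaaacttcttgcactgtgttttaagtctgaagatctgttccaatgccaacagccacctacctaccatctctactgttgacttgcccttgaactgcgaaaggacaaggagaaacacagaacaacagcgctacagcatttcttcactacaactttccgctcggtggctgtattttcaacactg

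Each gene had 1 GC-rich window and others without a GC box. The printed *Cacna1c* window held 57 CpG and 6 GC boxes with 81.3% G+C, and the first *Cacna1d* window held 63 CpG and 6 GC boxes with 87.3% G+C, against a median of 7 CpG over all promoters. The other 2 *Cacna1c* windows, at chr6:118757925-118758224 and chr6:119196360-119196659, held 7 and 3 CpG, 51.3% G+C each and no GC or TATA box. The other *Cacna1d* window held 4 CpG, 40.3% G+C and 3 TATA matches. A GC box was in 35.7% and a TATA box in 13.6% of 32851 promoter windows of the same length. The letters TTCAGCACC, part of the RE1 element that the repressor REST binds in many neuronal genes, were in 0.371% of windows and in none of the 10 windows of members. A match describes these letters only, and the data hold no measurement of binding.

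*Cacna1f*, the L-type channel of retinal photoreceptors (chrX:7607083-7635196), received 20, 5 and 37 counts in AAV-Control and 4, 9 and 32 in AAV-VEGF-C, and its TPM overlapped (0.565, 0.057 and 0.394 against 0.269, 0.360 and 2.25). Its log2 fold change was 1.95 ± 0.67 (edgeR adjusted p = 0.107). *Cacna1s*, the voltage sensor of skeletal muscle contraction (chr1:136052750-136119822), received 1, 0 and 4 counts in AAV-Control and 7, 5 and 30 in AAV-VEGF-C, or 0.014, 0 and 0.049 TPM against 0.419, 1.13 and 1.15 TPM. The groups did not overlap, and the log2 fold change was 5.58 ± 0.97 (edgeR adjusted p = 0.0195), on 5 or fewer counts in each AAV-Control library. *Gm37759*, an antisense gene that shares 1309 exon bases with *Cacna1s*, had 0 counts in each AAV-Control library and 2, 7 and 24 in AAV-VEGF-C. It was called higher as well (edgeR adjusted p = 0.0193). Since the use of strand in counting was not stated, reads of these 2 genes cannot be told apart over the shared bases.

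The 3 genes of the nerve-terminal channels were all higher in AAV-VEGF-C. *Cacna1a*, the P/Q-type channel that triggers transmitter release (chr8:84388440-84640246), received 43, 41 and 119 counts in AAV-Control and 20, 33 and 112 in AAV-VEGF-C. In TPM this was 1.15, 0.595 and 0.980 against 1.23, 3.05 and 5.10, with groups that just failed to overlap. Its log2 fold change of 2.30 ± 0.37 (edgeR adjusted p = 0.0193) thus came from similar raw counts in libraries of unequal depth.

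*Cacna1b*, the N-type channel of sensory and sympathetic terminals (chr2:24603887-24763152), received 11, 7 and 4 counts in AAV-Control and 13, 17.1 and 36 in AAV-VEGF-C. Its TPM was 0.124, 0.054 and 0.025 in AAV-Control and 0.526, 0.450 and 0.570 in AAV-VEGF-C, which was the narrowest spread of any member in that group relative to its mean. The log2 fold change was 4.12 ± 0.80 (edgeR adjusted p = 0.0223).

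*Cacna1e*, the R-type channel of central neurons and endocrine cells (chr1:154390731-154884501), received 58, 57 and 191 counts in AAV-Control and 109, 65 and 107 in AAV-VEGF-C. In TPM the values were 0.881, 0.506 and 1.31 against 22.0, 6.28 and 2.84. The groups did not overlap, and AAV-VEGF-C 1 was the highest library for *Cacna1e* as it was for *Cacna1d*. The log2 fold change was 3.42 ± 0.81 (edgeR adjusted p = 0.0356), with 1.89 as the lowest value when 1 library was left out.

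Of the T-type genes, *Cacna1g*, known from thalamic and pacemaker cells, gave most of the *Cacna1* reads in AAV-Control. The gene (ENSMUSG00000020866.17, chr11:94408391-94474198, minus strand) received 3275, 1471 and 3743 counts in AAV-Control and 67, 245 and 831 in AAV-VEGF-C. Its TPM was 37.0, 16 and 33.3 in AAV-Control and 3.44, 12.8 and 17.4 in AAV-VEGF-C. The groups overlapped by a single library each, AAV-Control 2 and AAV-VEGF-C 3, and the log2 fold change was -0.76 ± 0.43 (edgeR adjusted p = 0.293). Over the alternatives it lay between -1.55 and -0.26, below 0 in every one, without a call.

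The fibroblast markers moved beside *Cacna1g*: they summed to 2156, 1031 and 1805 TPM in AAV-Control 1, 2 and 3 and to 260, 413 and 856 TPM in AAV-VEGF-C 1, 2 and 3, the same order of libraries within each group. The smooth muscle markers summed to 24.3, 55.2 and 136 TPM and to 6.46, 18.5 and 47.1 TPM. Their part in the *Cacna1g* level was not tested. The genes whose log2 CPM (counts scaled to the library total) followed *Cacna1g* most closely over the 6 libraries were *Shisa4* (Pearson r = 0.992), *Gpr153* (0.991) and *Ltbp2* (0.989). They share depth and library with it, and 231 genes had a value above 0.9.

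*Cacna1h*, the T-type channel of sensory neurons and adrenal cells (chr17:25374285-25433783), received 158, 33 and 198 counts in AAV-Control and 17, 32 and 119 in AAV-VEGF-C, or 3.49, 0.773 and 1.62 TPM against 2.97, 1.24 and 3.06 TPM. The groups overlapped, and the log2 fold change was 1.15 ± 0.61 (edgeR adjusted p = 0.259). With the replicate number as a block, it was 1.46 with an adjusted p of 0.0428, and 7 members were then called higher where 12.8% of all genes were.

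*Cacna1i*, the T-type channel of the thalamic reticular nucleus (chr15:80287238-80398279), received 6, 4 and 14 counts in AAV-Control and 9, 23 and 59 in AAV-VEGF-C. The log2 fold change was 4.42 ± 0.47 (edgeR adjusted p = 0.0178), the smallest adjusted p of the family. Its TPM values nevertheless overlapped, at 0.673, 0.026 and 0.348 in AAV-Control and 0.300, 0.513 and 1.80 in AAV-VEGF-C. The authors' TPM gave 0.673 for 6 counts in AAV-Control 1 and 0.026 for 4 counts in AAV-Control 2.

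Fewer members stood out in TPM, in comparisons that differed from the main fit in scaling and test as well as in length correction. By range, 5 of 10 members lay above all AAV-Control libraries, where 12.8% of genes tested did, and 0 lay below them, where 36.4% did. *Cacna1b* and *Cacna1s*, 2 of these 5, passed the filter only through AAV-VEGF-C. On log2(TPM + 1), limma called *Cacna1d*, *Cacna1e* and *Cacna1s* higher, 3 of 10 members, where 6.37% of all genes were called higher. The median change of all genes on that scale was -0.716, against 2.57 for *Cacna1d*. On log2(TPM + 0.1), limma called *Cacna1b*, *Cacna1d* and *Cacna1s* instead, where 7.34% of all genes were called higher.

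**Figure D3:**
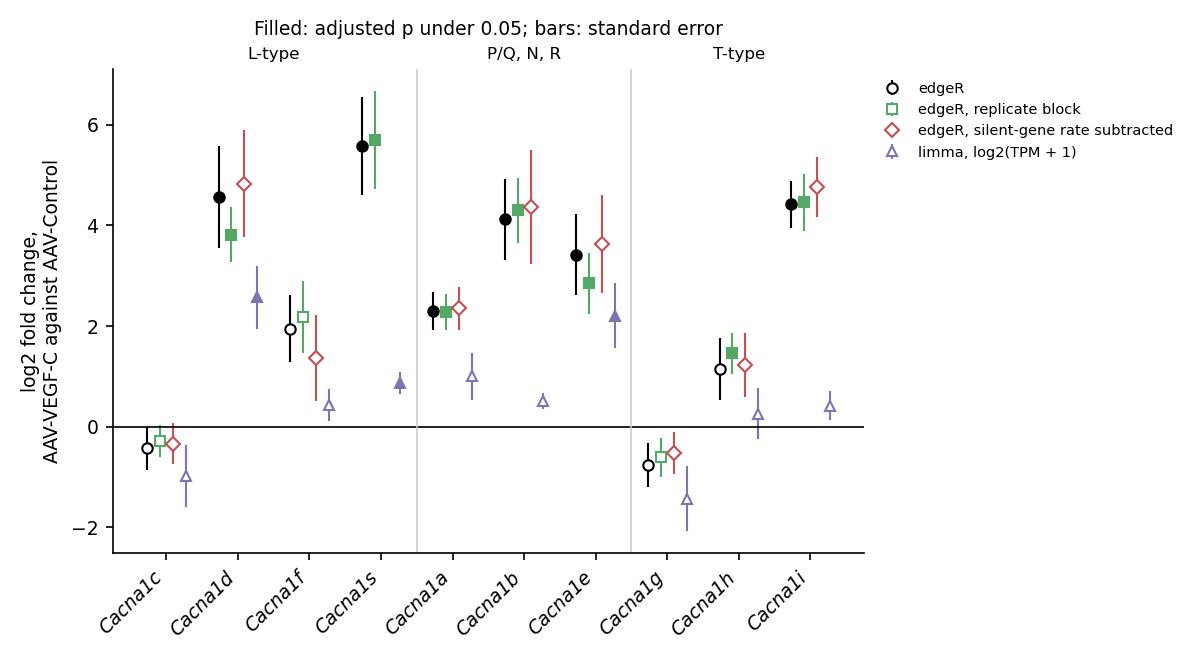
Log2 fold change of AAV-VEGF-C against AAV-Control with its standard error for the 10 Cacna1 genes, by edgeR, by edgeR with the replicate block, by edgeR after subtracting the silent-gene rate, and by limma on log2(TPM + 1). Filled symbols have an adjusted p under 0.05. Cacna1c and Cacna1g lie below 0 in all 4 fits, and Cacna1s could not be fitted after the subtraction.

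The members were then set against genes with no reads in AAV-Control. For AAV-VEGF-C libraries these were the 2969 protein-coding genes with 0 counts in all 3 AAV-Control libraries, and for an AAV-Control library those with 0 counts in the other 2 (3485 to 3783 genes). They received 0.188, 0.191 and 0.312 counts per kilobase of exon in AAV-Control 1, 2 and 3 and 0.232, 0.573 and 1.76 in AAV-VEGF-C 1, 2 and 3. As CPM per kilobase, the rate was 0.0261 ± 0.00237 in AAV-Control and 0.449 ± 0.0776 in AAV-VEGF-C, 17.2-fold higher with no overlap. The genes were chosen for 0 counts in AAV-Control libraries, with sets that differ between the groups, which favours a higher rate in AAV-VEGF-C. The 2-sided exact permutation p of 0.1, the lowest value 3 against 3 can give, is therefore no test of a group difference. 

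The mean CPM of the called members was higher in AAV-VEGF-C by 4.33-fold for *Cacna1a*, 8.60-fold for *Cacna1e*, 15.9-fold for *Cacna1b*, 19.0-fold for *Cacna1d*, 19.5-fold for *Cacna1i* and 52.7-fold for *Cacna1s*. The fold of the silent genes, themselves chosen on AAV-Control, lay within the range of the called members. Divided by the count that the silent-gene rate would give over its exons, *Cacna1b* was at 5.89, 3.69 and 1.29 in AAV-Control and at 5.65, 3.01 and 2.06 in AAV-VEGF-C. *Cacna1i* was at 3.28, 2.13 and 4.54 and at 3.94, 4.07 and 3.41. For both genes the groups overlapped on this ratio, although both were called higher in counts.

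*Cacna1a* lay nearer to the silent-gene rate in AAV-VEGF-C, at 7.57, 5.05 and 5.58 times it, than in AAV-Control, at 20.0, 18.8 and 33.4 times it. *Cacna1s* was at 0.813, 0 and 1.95 times the rate in AAV-Control and at 4.62, 1.33 and 2.61 times it in AAV-VEGF-C. *Cacna1f* was at 1.90, 1.73 and 2 times the rate in AAV-VEGF-C. In AAV-VEGF-C, *Cacna1a*, *Cacna1b*, *Cacna1f*, *Cacna1h*, *Cacna1i* and *Cacna1s* did not exceed 7.57 times the rate.

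*Cacna1d* was at 277, 75.7 and 20.0 times the silent-gene rate over exons in AAV-VEGF-C 1, 2 and 3. In AAV-Control the ratio was 106, 143 and 64.7. *Cacna1e* was at 18.7, 4.50 and 2.41 times the rate in AAV-VEGF-C and at 12.2, 11.8 and 24.2 times it in AAV-Control. *Cacna1g* was at 28.5, 42.2 and 46.7 times the rate in AAV-VEGF-C and at 1720, 761 and 1182 times it in AAV-Control. On this ratio the groups overlapped for *Cacna1d* and *Cacna1e*. For *Cacna1g*, *Cacna1c*, *Cacna1a*, *Cacna1h* and *Cacna1f*, all values of AAV-VEGF-C were below all values of AAV-Control. The silent-gene rate, as CPM per kilobase, was itself 17.2-fold higher in AAV-VEGF-C. A gene whose CPM rose less than that tends to fall on this ratio. The mean CPM of these genes changed 0.549-, 0.676-, 4.33-, 2.0- and 3.47-fold, in that order. The share of all genes that fell in this way was not counted, so the lower ratios cannot be read as particular to these members. Against a rate taken over whole gene spans instead, *Cacna1d* was at 83.6, 22.9 and 6.03 times it in AAV-VEGF-C and *Cacna1g* at 47.5, 70.2 and 77.6 times it.

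**Figure D4:**
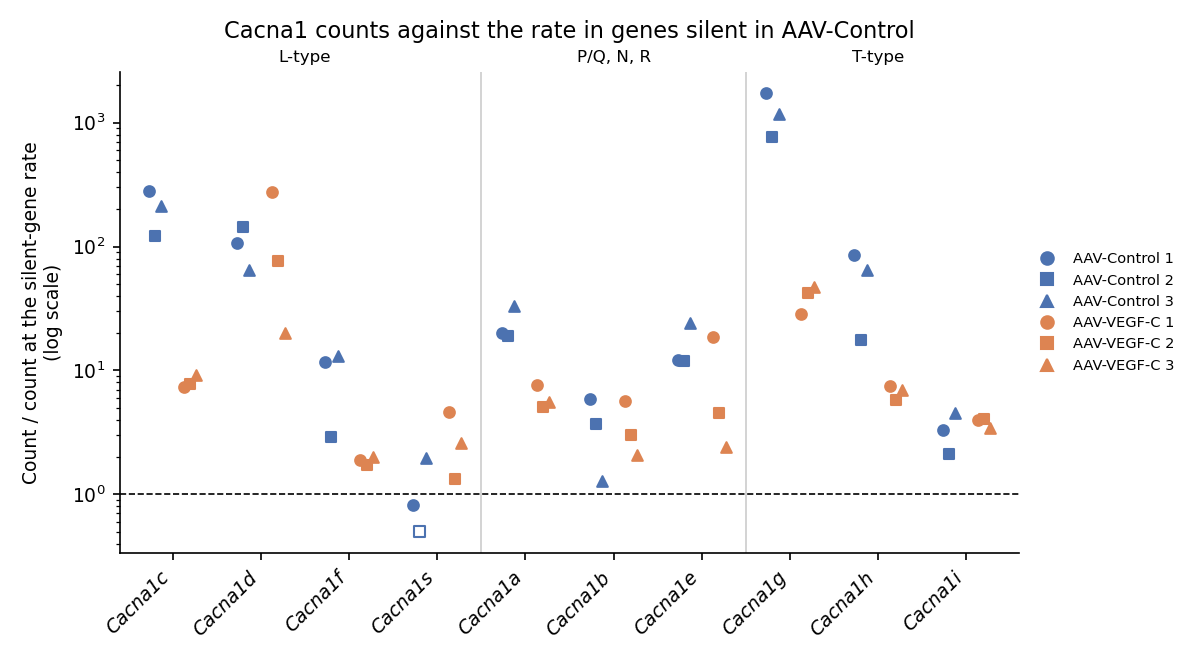
Estimated count of each Cacna1 gene divided by the count that the silent-gene rate gives over its exon length (log scale), per library. The dashed line marks a ratio of 1, and the open square stands for Cacna1s in AAV-Control 2 with 0 counts. Cacna1d reaches 277 in AAV-VEGF-C 1, while Cacna1f stays between 1.73 and 2 in AAV-VEGF-C.

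When this rate was subtracted from every gene before the test, edgeR called 0 of the 9 members that could be tested, where 0.0761% of all genes were called higher, and 5 members and 17.9% of all genes had an unadjusted p under 0.05. The fitted change of *Cacna1d* was then 4.83 ± 1.06 with an adjusted p of 0.0785, and that of *Cacna1i* 4.77 ± 0.60 with an adjusted p of 0.0567. When reads were removed at random until all totals equalled the lowest one, edgeR called 0 of 6 members tested, where 0.211% of genes were called higher, and 3 members and 10.4% of all genes had an unadjusted p under 0.05.

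The counts were also set against gene length, as a description. Over the 10 members, which share each library's depth, Spearman's rank correlation between count and exon length was 0.61, 0.78 and 0.58 in AAV-Control 1, 2 and 3 and 0.87, 0.81 and 0.61 in AAV-VEGF-C. With the length of the whole gene it was 0.25, 0.45 and 0.22 in AAV-Control and 0.64, 0.53 and 0.30 in AAV-VEGF-C. The longest exon sets are those of *Cacna1e* (25.23 kb) and *Cacna1c* (21.19 kb), and the shortest is that of *Cacna1s* (6.55 kb).

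The members differed in how their reads scaled with depth in AAV-VEGF-C. From the shallowest to the deepest library, *Cacna1g*, *Cacna1c* and *Cacna1i* rose in count together with the total, whereas *Cacna1d* fell from 809 to 443 and *Cacna1e* went from 109 to 65 and 107. In CPM, *Cacna1d* was at 1433, 381 and 136 in AAV-VEGF-C 1, 2 and 3, and *Cacna1i* at 15.9, 16 and 18.1. *Cacna1d* was thus the member that varied most in CPM between these libraries, and *Cacna1i* the one that varied least relative to its mean.

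**Figure D5:**
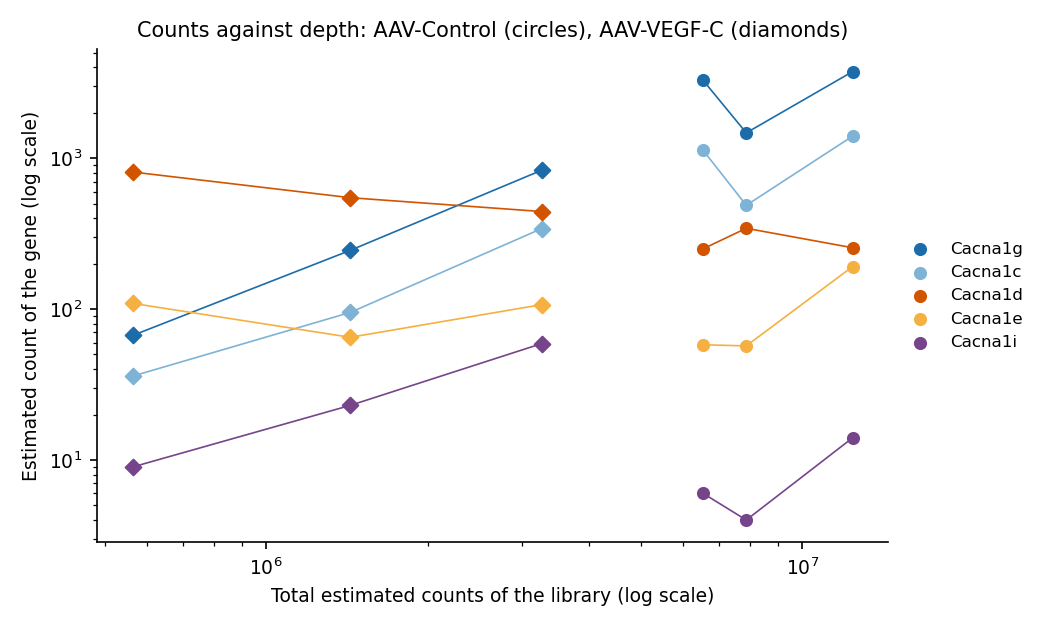
Estimated count of 5 Cacna1 genes against the total estimated counts of each library (both log scale), with AAV-Control as circles, AAV-VEGF-C as diamonds, and lines joining libraries of a group. Cacna1d falls from 809 to 443 counts over the AAV-VEGF-C libraries as their totals rise from 564475 to 3261935, while Cacna1g rises from 67 to 831.

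Pores of the L-, P/Q-, N- and R-types work with auxiliary subunits, which set their number at the membrane and their gating. Of 16 genes for these subunits, 14 were tested, 4 were higher in AAV-VEGF-C and 0 lower, with a median log2 fold change of 0.97. Of all genes tested 10.5% were higher, and of those with a mean under 5 TPM, where all 4 lie, 16.8%. All 4 belong to the gamma family, several of which are better known as partners of AMPA receptors. *Cacng2* had 4, 3 and 4 counts in AAV-Control and 4, 8 and 25 in the other group (log2 fold change 4.05 ± 0.64, edgeR adjusted p = 0.0193).

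*Cacng5* had 5, 4 and 4 against 2, 4 and 16 counts (log2 fold change 2.94 ± 0.69, edgeR adjusted p = 0.0336). With the replicate block its adjusted p was 0.0584, and that of *Cacna2d4*, named for this change of call, went from 0.162 to 0.0282. *Cacng3* had 0, 1 and 2 counts in AAV-Control and 9, 5 and 24 in AAV-VEGF-C, and *Cacng8* had 0 in each AAV-Control library and 3, 5 and 15 in AAV-VEGF-C (edgeR adjusted p = 0.0193 for each). The highest count of these 4 genes in any library was 25, and all 4 passed the filter only through AAV-VEGF-C. The subunits of highest mean TPM were not called: *Cacna2d2* at 6.99 ± 1.63 TPM in AAV-Control and 3.21 ± 1.89 in AAV-VEGF-C (edgeR adjusted p = 0.752), *Cacnb3* at 3.65 ± 1.29 and 3.87 ± 3.41 (0.811), and *Cacnb4* at 1.36 ± 2.15 and 3.38 ± 5.43 (0.186). The rank of *Cacnb4* came from AAV-Control 1 (3.845 TPM for 18 counts) and AAV-VEGF-C 1 (9.658 TPM for 7 counts). Its other libraries were at 0.107 to 0.306 TPM.

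Of 12 proteins that bind or regulate the pore, 9 were tested, 1 was higher and 0 lower, with a median of 0.30. This 1 in 9 is near the background of 10.5% of all genes called higher. The 1 was *Rimbp2*, which tethers calcium channels at synaptic active zones, with 9, 4 and 9 counts in AAV-Control and 37, 31 and 60 in the other group (log2 fold change 5.53 ± 0.81, edgeR adjusted p = 0.0193). *Rimbp2* passed the filter only through AAV-VEGF-C. *Calm2* and *Calm3*, whose product senses the entering calcium, were at the highest levels of this list, and their log2 fold changes of -0.81 and -0.90 were not called (edgeR adjusted p = 0.0753 and 0.110).

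Other routes of calcium entry and release were counted in the same way. Of 28 such genes, all tested, 4 were higher and 0 lower, with a median of 0.04, against 10.5% of all genes called higher and 16.8% of those under 5 TPM, the class of these 4. *Ryr1*, the calcium release channel that couples to *Cacna1s* in skeletal muscle, had 18, 12 and 3 counts in AAV-Control and 32, 22 and 111 in the other group (log2 fold change 4.73 ± 0.95, edgeR adjusted p = 0.0241). *Ryr2*, its cardiac relative, had 102, 45 and 278 against 26, 66 and 140 counts (1.83 ± 0.47, adjusted p = 0.0443).

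*Atp2a1*, the calcium pump of fast skeletal muscle, had 4, 2 and 4 against 2, 3 and 23 counts (3.56 ± 0.75, edgeR adjusted p = 0.0262), and *Trpc6*, a receptor-operated cation channel, had 0, 3 and 6 against 5, 5 and 9 counts (3.98 ± 1.01, adjusted p = 0.0432, or 0.0565 with the replicate block). *Ryr1*, *Atp2a1* and *Trpc6* passed the filter only through AAV-VEGF-C, so the count of higher genes cannot be read against the share of all genes. The genes of highest level were *Itpr1*, the inositol trisphosphate receptor (45.6 ± 15.8 TPM in AAV-Control and 12.1 ± 3.51 in AAV-VEGF-C), *Atp2a2*, the store pump of most cells (34.2 ± 9.40 and 9.77 ± 5.77), and *Atp2b1*, a pump of the plasma membrane (29.6 ± 11.7 and 14 ± 7.51). None of these 3 was called (edgeR adjusted p = 0.268, 0.112 and 0.826).

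Markers of the cells that are known for these channels were measured beside them. Of 8 neuron markers, 7 were tested and 4 were higher in AAV-VEGF-C (*Rbfox3*, *Stmn2*, *Gad1*, *Tubb3*), beside 16.8% of all genes at that level, under 5 TPM. All 4 passed the filter only through AAV-VEGF-C, so their number cannot be read against that share. In AAV-Control, *Rbfox3* had 6, 2 and 2 counts and *Gad1* 1, 3 and 0. *Snap25*, the neuron marker of highest mean TPM, was not called (log2 fold change -0.2), nor were *Syt1* (0.92) and *Slc17a7* (0.93). The summed level of the 8 neuron markers was 3.56 to 17.4 TPM in AAV-Control and 12.2 to 16.2 TPM in AAV-VEGF-C. Of 6 skeletal muscle markers, 2 were tested and 1, *Acta1*, was higher (sums of 2.06 to 3.06 TPM against 2.47 to 13.7 TPM). *Acta1* also passed the filter only through AAV-VEGF-C.

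No smooth muscle or leukocyte marker was called, with sums of 24.3 to 136 TPM against 6.46 to 47.1 TPM and of 7 to 606 TPM against 12 to 318 TPM. The low end of the leukocyte sums was experiment 1 in both groups. Of 6 Schwann cell and glia markers 1 was higher (*Sox10*) and 1 lower (*S100b*; sums of 26.6 to 53.7 TPM against 7.29 to 25.6 TPM), and of 6 fibroblast markers 1 was lower (*Dcn*). *Sox10* passed the filter only through AAV-VEGF-C. All markers given as higher or lower are named because they were called. None of these markers was at 0 in all libraries of a group. Their part in the *Cacna1* results was not tested.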

How the data were processed

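Bulk RNA sequencing of 6 libraries of sorted dural LECs, 3 per group, was analysed. Per the labels, total RNA was made into stranded, low-input total RNA libraries. The submitters' processing notes name FastQC, Trimmomatic, DRAGEN, Picard and the build mm10. The counting program and its use of strand and of molecular identifiers are not given in the sources used here. Of the tables the authors deposited, one holds estimated counts for each gene without scaling between libraries. The TPM values, scaled for transcript length and library total, were also deposited by the authors. Of the gene identifiers, 98.1% equalled those of GENCODE M21 (GRCm38) with their version and 99.5% without it, and positions and exon lengths were taken from that annotation.

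Estimated counts were rounded, filtered with filterByExpr and scaled by TMM, and the groups were compared by the quasi-likelihood test of edgeR (version 4.0.16, R 4.3.3) with Benjamini-Hochberg adjustment over all genes tested at 0.05. The study used DESeq2 (run here as version 1.42.0). The other alternatives were limma (version 3.58.1) on log2(TPM + 1) and log2(TPM + 0.1), other scaling (RLE size factors, or the 2000 most abundant genes), no filter, the replicate block, subtraction of the silent-gene rate, drawing down to the smallest library and leaving out each library. CPM are counts scaled to the library total. The fits were tested on simulated data. An exact permutation test was run only on the silent-gene rate, where it is no test of a group difference. Likeness to a member was Pearson's r of log2 CPM (TMM, prior count 2).

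All *Cacna1* genes are named. From each list of related genes, those with an adjusted p under 0.05 (up to the 6 of largest change) and the 3 of highest mean TPM are named, and for the leading member the 3 genes most like it. Not every gene or marker list that this covers is reported here. The members, lists and rules were chosen with earlier results of these data known. The labels give each library's experiment number. Across genes, libraries of the same number deviated together from the mean of their group, with correlations of 0.369, 0.28 and 0.155 for numbers 1, 2 and 3. The highest value for different numbers was 0.216, above that of number 3. The numbers were taken to pair the libraries only in the fit with the replicate block. The main fit and its p-values left this pairing out.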

Additional observations from a re-analysis of the deposited data

How the results depend on the processing

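Of the changes of the 10 *Cacna1* genes under the alternatives, 104 values kept direction and side of the threshold, 38 kept direction and lost the call, 1 gained it and 2 turned in direction. Those that turned were *Cacna1c*, at 0.11 after drawing down and at 0.04 without AAV-Control 1 (range -0.78 to 0.04 over single libraries left out). The 6 members called higher were 6 by DESeq2, with RLE size factors, with scaling on the 2000 most abundant genes and without a filter, where 18.6%, 10.3%, 11.8% and 21.1% of all genes were called higher. They were 3 on log2(TPM + 1) and 3 on log2(TPM + 0.1), 0 of 9 after the subtraction, 0 of 6 after drawing down, and 0 to 6 when 1 library was left out. With the replicate block 7 were higher, and *Cacna1h* was the 1 call it added (log2 fold change 1.46, adjusted p = 0.0428). It changed no other call of a member. Among the related genes it added *Cacna2d4* and took away *Cacng5* and *Trpc6*, so 3 of the other calcium genes were then higher.

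For auxiliary subunits, the count of 4 higher became 2 on log2(TPM + 1), 0 after the subtraction and 0 after drawing down (unadjusted p under 0.05 for 4 and 1 by edgeR), and 0 to 3 with 1 library left out. For the channel partners, 2 were higher by DESeq2 and 2 without a filter, 0 after the subtraction, 0 after drawing down (unadjusted p under 0.05 for 3 and 0), and 0 to 1 with 1 library left out, while 2 were lower by DESeq2 and 1 without a filter. For the other calcium genes, 1 was higher on log2(TPM + 1), 2 on log2(TPM + 0.1), 0 after the subtraction, 0 after drawing down (unadjusted p under 0.05 for 2 and 3), and 0 to 2 with 1 library left out, and 1 was lower without a filter. The cause was not tested.

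*Cacna1s* was not tested after the subtraction, nor were *Cacna1b*, *Cacna1f*, *Cacna1i* and *Cacna1s* after drawing down, since too few counts were left. Depth limits these 4 genes most: their AAV-VEGF-C counts lay between 4 and 59.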
